A study of Homo sapiens with 6 samples.

Results

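The fibroblast growth factor (FGF) system was followed here through 9 genes in a pair of lung adenocarcinoma cell lines that differ in their sensitivity to gefitinib, an inhibitor of the epidermal growth factor receptor kinase. The 9 genes are the receptors FGFR1, FGFR2, FGFR3 and FGFR4, the receptor-like protein FGFRL1, the ligands FGF1, FGF2 and FGF9, and the carrier FGFBP1. They were taken by name as members of the FGF system, with earlier results of these data known, and every probe set annotated to exactly 1 of them was kept, which gave 34 probe sets for 9 of the 19775 genes measured. PC9 is the parental, gefitinib-sensitive line, and PC9/gef is the resistant line selected from PC9 under continuous exposure to rising gefitinib concentrations. Total RNA of each line was hybridized to Affymetrix oligonucleotide arrays, 3 arrays of PC9 and 3 of PC9/gef, and both lines were grown in the same serum-containing medium. The labels do not say whether gefitinib was in the medium at harvest. PC9/gef is a single selected line, so the effects of selection, of drug and of the history of that line cannot be told apart. Replicates are called biological in the labels, with no separate cultures named, so the p-values measure the spread between these samples only.

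FGF ligands are secreted proteins that bind heparan sulfate on the cell surface and in the matrix. A ligand, a receptor tyrosine kinase of the FGFR family and a heparan sulfate chain, or a Klotho protein for the hormone-like ligands, form the signalling complex. The activated receptor recruits docking proteins and drives the RAS-MAPK and PI3K pathways, and its output is limited by induced inhibitors such as the Sprouty proteins. FGFBP1 is a secreted carrier that releases FGF2 and related ligands from the matrix, and FGFRL1 binds ligands and heparin but lacks the kinase domain. In lung cancer, FGFR1 and its ligands are known as an alternative source of growth signals in cells treated with inhibitors of the epidermal growth factor receptor.

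The deposited values were on the log2 scale and ran from 1.65 to 15.72. A level is given below as this log2 value, and a difference as the log2 change of PC9/gef against PC9. Olfactory receptors, which are taken as silent in these cells, set the background level: 95% of their 107 probe sets had a mean of 2.61 or less. A probe set was said to be above background level where the mean of at least 1 line was over it. Arrays of the same line correlated at 0.999 or higher over all probe sets and arrays of different lines at 0.994 or lower. All 8 epithelial markers listed were above background level in both lines, with line means between 9.60 and 15.20. Of the lung adenocarcinoma markers, NKX2-1, NAPSA and SFTPC were at background level in both lines, whereas SFTPB was measured at 4.31 in PC9 and 4.33 in PC9/gef.

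Of the 9 genes, 6 had a probe set above background level (FGFR1, FGFR2, FGFR4, FGFRL1, FGF9 and FGFBP1) and 3 did not (FGFR3, FGF1 and FGF2). Each gene was read from its brightest probe set, by the mean over the 6 arrays. In limma, with Benjamini-Hochberg adjustment over all 54613 probe sets, 1 of the 9 genes passed the threshold of 0.05 as lower in PC9/gef (FGFBP1) and 0 passed as higher. Over all genes, 12.9% passed as lower and 12.6% as higher, so the count for the FGF genes was near that of genes in general. At an unadjusted limma p under 0.05, 4 of the 9 genes were lower and 0 were higher, against 30.1% lower and 17.5% higher over all genes. The methods' t-test, named there for comparing means in general, gave the same counts for the 9 genes, against 32.2% lower and 16.9% higher over all genes. For array genes the supplementary methods name a change of more than 2-fold. Of the 6 genes above background level 1 passed that rule (FGFBP1), against 4.68% in either direction of all genes above it. The arrays of the lines did not overlap for 4 of the 9 genes (FGFR4, FGFRL1, FGF9 and FGFBP1), against 55.7% of all genes and 65.1% of those above background level. For FGF9 the gap between the nearest arrays was only 0.0024. The median log2 change of the 6 genes above background level was -0.11, beside -0.0090 for all 12185 genes above it. With 6 genes this median lies midway between FGFR4 (-0.21) and FGF9 (-0.010), and neither of them was called.

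**Figure D1:**
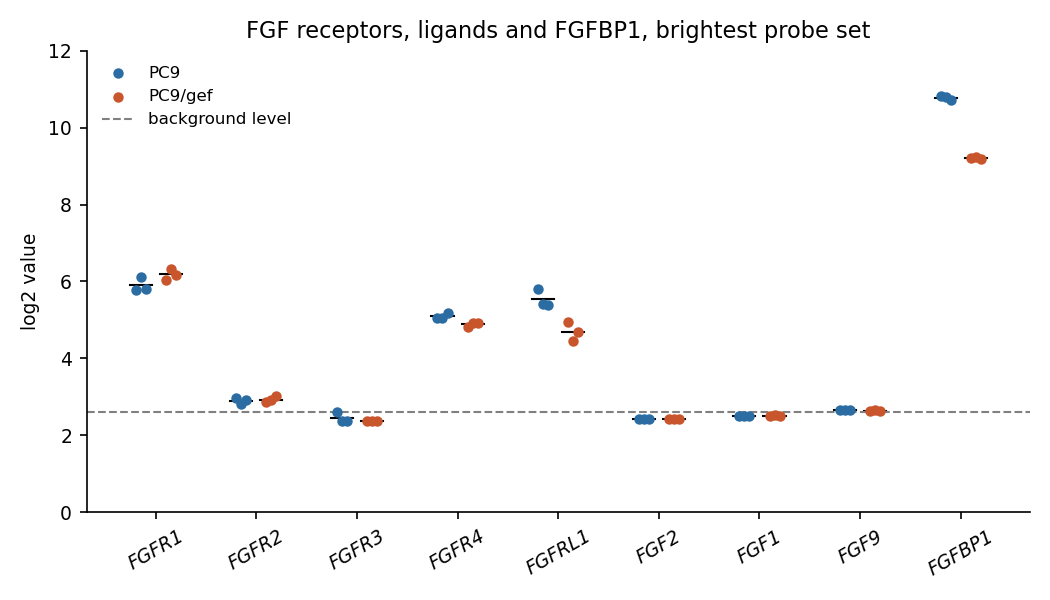
Level of each of the 9 FGF genes on every array, read from the brightest probe set (log2 value on the y axis, genes on the x axis). Points are single arrays of PC9 and PC9/gef, short lines are line means, and the dashed line is the background level of 2.61. FGFBP1 fell from about 10.78 to 9.20 and FGFRL1 lay lower on all 3 PC9/gef arrays, while FGFR3, FGF1 and FGF2 lay at the background level in both lines.

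FGFBP1, the secreted carrier of FGF ligands, was the FGF gene with the largest difference between the lines. It is measured by a single probe set, 205014_at, whose name does not carry the suffix of sequences shared between genes. FGFBP1 read 10.83, 10.79 and 10.72 on the PC9 arrays and 9.20, 9.23 and 9.18 on the PC9/gef arrays. All 3 PC9 arrays were above all 3 PC9/gef arrays, with a gap of 1.49 between the nearest arrays, and both lines stayed far above background level. The mean was 10.78 ± 0.055 (SD, n = 3) in PC9 and 9.20 ± 0.026 (SD, n = 3) in PC9/gef. The log2 change was -1.58 with a standard error of 0.034, a 2.98-fold lower level with a 95% confidence interval of 2.80 to 3.18 (limma adjusted p = 0.00016). With each array left out in turn the log2 change of FGFBP1 lay between -1.61 and -1.55 and passed the test each time, with limma adjusted p from 0.0012 to 0.0028. Of the 12185 genes above background level, 87 (0.714%) had a log2 change as low as that of FGFBP1 or lower, and 2.17% were over 2-fold lower.

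The 250 bases before the start of FGFBP1 and of FGFRL1 are shown because these members had the largest differences between the lines. They are given 5′ to 3′ on the strand of the gene, from RefSeq on GRCh38.p14, where 7 of the 9 genes had a promoter entry. FGFBP1 lies on the minus strand, at chr4:15938741-15938990, and FGFRL1 on the plus strand of the same chromosome, at chr4:1012214-1012463. Both windows lie directly before the start given by the promoter entry, and other transcript starts were not checked. Capitals mark every match, on either strand, to the motifs searched.
FGFBP1: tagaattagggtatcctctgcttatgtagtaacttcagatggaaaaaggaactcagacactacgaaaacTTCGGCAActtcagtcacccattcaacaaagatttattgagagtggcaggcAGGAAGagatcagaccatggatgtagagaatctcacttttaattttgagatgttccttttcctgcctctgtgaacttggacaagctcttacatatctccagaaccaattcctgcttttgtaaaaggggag
FGFRL1: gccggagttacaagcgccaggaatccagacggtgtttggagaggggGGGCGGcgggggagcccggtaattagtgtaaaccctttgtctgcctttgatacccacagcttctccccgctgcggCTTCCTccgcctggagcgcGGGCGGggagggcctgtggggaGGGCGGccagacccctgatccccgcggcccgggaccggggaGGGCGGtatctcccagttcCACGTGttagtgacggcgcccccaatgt

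The motifs were the AP-1 motif TGANTCA, the GC box GGGCGG, the TATA box TATAAA, the E-box CACGTG, the C/EBP motif TTGCNNAA and the PEA3 motif of ETS factors AGGAAG. No 2 matches overlapped in either window. The FGFBP1 window held 1 C/EBP motif, 181 bases before the start, and 1 PEA3 motif, 130 bases before it. These motifs were present in 9.05% and 28.7% of the 35116 promoter windows of the same length. The FGFRL1 window held 4 GC boxes, the first 204 bases before the start. It also held 1 PEA3 motif, 129 bases before the start, and 1 E-box, 28 bases before it. A GC box was found in 42.6% of all windows and the E-box in 6.35%. Letters of the AP-1 motif (6.57% of windows) and the TATA box (10.7%) were in neither window. FGFBP1 had 40.8% G and C in its window and FGFRL1 67.6%, against a median of 58% over all windows. A match describes letters and not binding, which these arrays do not measure.

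3 genes followed FGFBP1 most closely over the 6 arrays, by the root mean square difference of log2 values centred on each gene's own mean. AKR1B10, an aldo-keto reductase, differed from the FGFBP1 profile by 0.034, with a log2 change of -1.62. ID1, an inhibitor of basic helix-loop-helix transcription factors, differed by 0.040 and fell by 1.56 on the log2 scale. ALPP, the placental alkaline phosphatase, differed by 0.045 and had a log2 change of -1.57. The median difference from FGFBP1 over the genes above background level was 0.786. With 6 arrays in 2 lines, likeness of this kind mainly ranks genes with a fall of the same size.

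FGFBP1 was also set beside its 3 nearest protein-coding neighbours with a probe set on each side, taken from the gene order of RefSeq after the member values had been seen. FGFBP2, the related binding protein next to it, was at background level in both lines, as were BST1, CD38 and PROM1. FAM200B was higher in PC9/gef by 0.74 on the log2 scale (limma adjusted p = 0.0043) and TAPT1 by 0.090 (adjusted p = 0.0235). None of these 6 neighbours was called lower.

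FGFRL1, which lacks the receptor kinase, showed the next largest difference. Its probe set 223321_s_at read 5.81, 5.41 and 5.38 on the PC9 arrays and 4.93, 4.44 and 4.69 on the PC9/gef arrays. The lines did not overlap, although PC9 replicate 1 stood above the other PC9 arrays and the PC9/gef arrays spread over a similar range. The mean was 5.53 ± 0.24 (SD, n = 3) in PC9 and 4.69 ± 0.25 (SD, n = 3) in PC9/gef. The log2 change was -0.84 with a standard error of 0.19, a 1.79-fold lower level with a 95% confidence interval of 1.26 to 2.55, and it narrowly missed the threshold (limma adjusted p = 0.0530). FGFRL1 passed under 4 other settings: with adjustment over genes (adjusted p = 0.0346), with dim probe sets left out (0.0124), with trend and robust moderation (0.0281) and as the mean over both of its probe sets (log2 change -0.42, adjusted p = 0.0354). Adjustment over genes and leaving out dim probe sets shorten the list of tests. The mean over probe sets includes a probe set at background level. FGFRL1 did not pass with median centring or quantile normalization (limma adjusted p = 0.0530 for both) or with a replicate block (0.0506). By the methods' t-test its adjusted p was 0.0591. With each array left out in turn the change of FGFRL1 lay between -0.97 and -0.71 and the limma adjusted p between 0.0701 and 0.154. The second probe set of FGFRL1 was at background level in both lines, with a mean of 2.27. Both FGFRL1 probe sets carry a suffix of sequences that can match several transcripts, so leaving out such probe sets gave no value for FGFRL1. Of the genes above background level, 3.19% had a change as low as that of FGFRL1 or lower. Among its 3 neighbours on each side, RNF212 had a log2 change of -1.16 that did not pass (limma adjusted p = 0.0548), CTBP1 was lower by 0.12 (adjusted p = 0.0103), and DGKQ (-0.083) and MAEA (-0.16) did not pass, with SLC26A1 and IDUA at background level.

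FGFR4, a kinase receptor with a preference for hormone-like FGFs, was above background level with 1 of its 4 probe sets. FGFR4 read 5.04, 5.05 and 5.19 on the PC9 arrays and 4.82, 4.91 and 4.91 on the PC9/gef arrays. All 3 PC9/gef arrays were below all 3 PC9 arrays, by 0.13 between the nearest arrays. The log2 change was -0.21 with a standard error of 0.051, a 1.16-fold lower level with a 95% confidence interval of 1.05 to 1.28 (limma adjusted p = 0.0610). FGFR4 passed with adjustment over genes (adjusted p = 0.0415) and with dim probe sets left out (0.0210), settings that shorten the list of tests. It did not pass as the mean over its probe sets (log2 change -0.027, limma adjusted p = 0.421) or with a replicate block (0.123). With each array left out in turn it did not pass either, with limma adjusted p from 0.0878 to 0.151. Changes of this size or larger, in either direction, were seen in 44.5% of the genes above background level. Another FGFR4 probe set, 1554961_at, lay at background level except on PC9/gef replicate 1, where it read 2.69 against 2.38 or less on the other 5 arrays.

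FGFR1, a kinase receptor known as a bypass route in lung cancer cells, was the receptor with the most probe sets above background level, 4 of 7. Their differences did not share 1 sign. The probe set 211535_s_at read 5.76, 6.12 and 5.81 in PC9 and 6.05, 6.33 and 6.17 in PC9/gef, so that PC9 replicate 2 lay inside the PC9/gef range. Its log2 change was 0.29 with a 95% confidence interval of -0.064 to 0.64 (limma adjusted p = 0.192). The probe set 215404_x_at read 5.75, 5.74 and 5.72 in PC9 and 6.03, 5.77 and 6.12 in PC9/gef. The lines did not overlap, by a margin of 0.024, because PC9/gef replicate 2 lay close to the PC9 arrays. The log2 change of 215404_x_at was 0.24 with a 95% confidence interval of -0.027 to 0.50 (limma adjusted p = 0.160), and without PC9/gef replicate 2 it was 0.34 and passed (adjusted p = 0.0170). Both of these probe sets carry the suffix of sequences that can match several transcripts. The probe sets of FGFR1 without such a suffix were not higher in PC9/gef. The probe set 226705_at read 5.06, 5.34 and 5.10 in PC9 and 5.05, 5.16 and 4.95 in PC9/gef, a log2 change of -0.11 with a 95% confidence interval of -0.39 to 0.16 (limma adjusted p = 0.463). The probe set 222164_at changed by -0.017 (limma adjusted p = 0.844) with overlapping arrays. A rise of FGFR1 was therefore not called by any of the 4 probe sets with all arrays in, and the sign of the change depended on which probe set was read.

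FGFR2, which exists in an epithelial and a mesenchymal splice form, was barely above background level. Its probe set 208229_at read 2.97, 2.80 and 2.91 in PC9 and 2.87, 2.90 and 3.01 in PC9/gef. The arrays of the lines were interleaved, and the log2 change was 0.033 with a 95% confidence interval of -0.14 to 0.20 (limma adjusted p = 0.700). The sign turned to -0.012 without PC9 replicate 2 and to -0.0094 without PC9/gef replicate 3. The second FGFR2 probe set above background level, 211399_at, changed by -0.019 (limma adjusted p = 0.116). Its arrays did not overlap between the lines, by a margin of only 0.0029. The other 9 probe sets of FGFR2 were at background level.

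FGFR3, another kinase receptor of the family, was at background level with both probe sets. The brighter, 204379_s_at, read 2.60, 2.37 and 2.37 in PC9 and 2.37 on all 3 PC9/gef arrays, so that only PC9 replicate 1 stood apart.

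**Figure D2:**
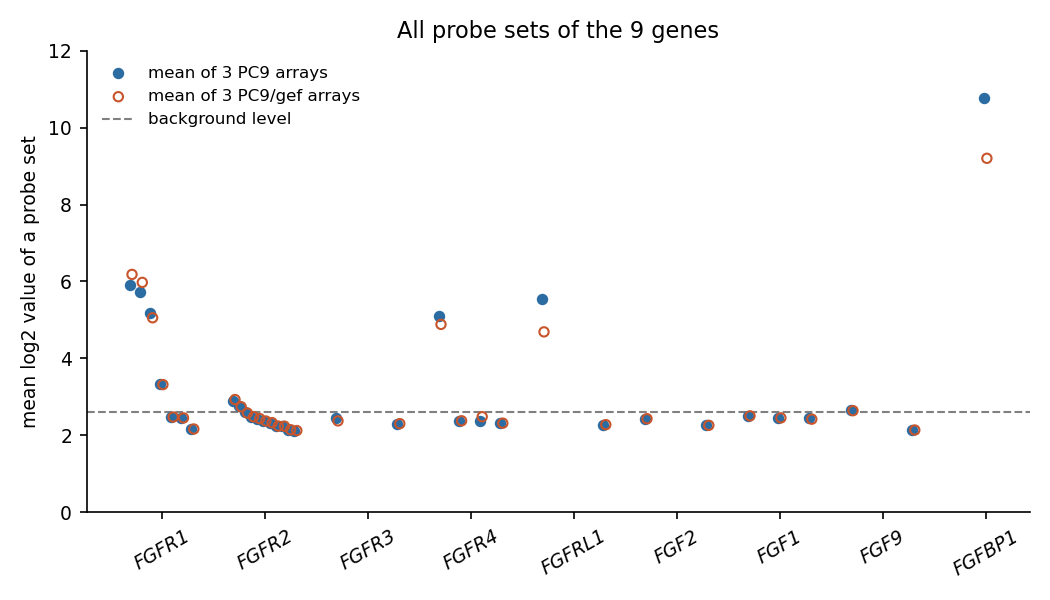
Mean log2 value (y axis) of each of the 34 probe sets, by gene (x axis), with filled points for the mean of 3 PC9 arrays and open points for the mean of 3 PC9/gef arrays. The dashed line is the background level of 2.61, and 24 of the probe sets lie at or under it in both lines, most of those of FGFR2 among them.

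**Figure D3:**
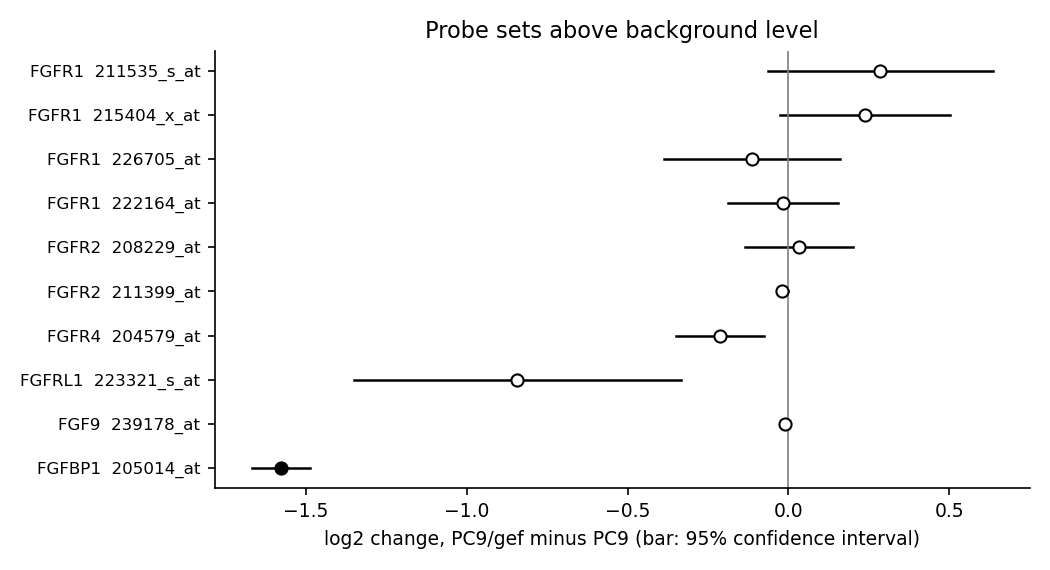
Log2 change of PC9/gef against PC9 (x axis) with its 95% confidence interval from limma for the 10 FGF probe sets above background level, 1 row per probe set. The filled point passed limma. The interval of FGFBP1 runs from -1.67 to -1.49, that of FGFRL1 from -1.35 to -0.34, and the FGFR1 probe sets lie on both sides of 0.

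The ligands gave little signal. FGF2, the basic FGF that FGFBP1 carries, read 2.43 on all 6 arrays with its brighter probe set and was at background level in both lines. FGF1, the acidic FGF that binds every FGF receptor, read 2.50 in PC9 and 2.50 in PC9/gef as line means, and all 3 of its probe sets were at background level. FGF9, a ligand active in lung mesenchyme, was above background level by only 0.039. FGF9 read 2.65 on all 3 PC9 arrays and 2.63, 2.64 and 2.64 on the PC9/gef arrays, a log2 change of -0.010 (limma adjusted p = 0.0948). The FGF9 arrays did not overlap, but the nearest arrays of the lines were only 0.0024 apart. Without PC9/gef replicate 2 the limma adjusted p was 0.0451 for a change of -0.013.

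Across all 34 probe sets of the 9 genes, 3 passed limma as lower and 0 as higher, against 8.99% lower and 7.61% higher over all probe sets tested. 2 of these 3 were at background level, where the values hardly vary. They were 210973_s_at of FGFR1, with a log2 change of -0.0041 (limma adjusted p = 0.0483), and 208228_s_at of FGFR2, with -0.0031 (limma adjusted p = 0.0404). Of the 10 probe sets above background level, 6 had arrays that did not overlap between the lines, against 60.6% of all probe sets above it, and 1 (FGFBP1) was called lower, against 16% lower and 15.9% higher. The 24 probe sets at background level read between 2.12 and 2.69, and 18 of them varied by less than 0.01 over the 6 arrays. A difference in transcripts at that level was not detectable on these arrays.

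Genes that work with the 9 members were then followed in 9 lists of 114 genes, from ligands to splicing regulators, of which 109 were read from a probe set of their own here and 76 were above background level. Of these 76, 16 were higher (21.1%), 21 were lower (27.6%) and 39 did not pass in limma, beside 20.5% higher and 19.2% lower over all genes above background level. Their median log2 change was -0.0091, beside -0.0090 for all genes above background level. 3 were over 2-fold higher and 3 over 2-fold lower, together 7.89% of the 76 against 4.68% of all genes above background level. The counts of each list below stand beside the same 20.5% higher and 19.2% lower, and no list was tested.

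**Figure D4:**
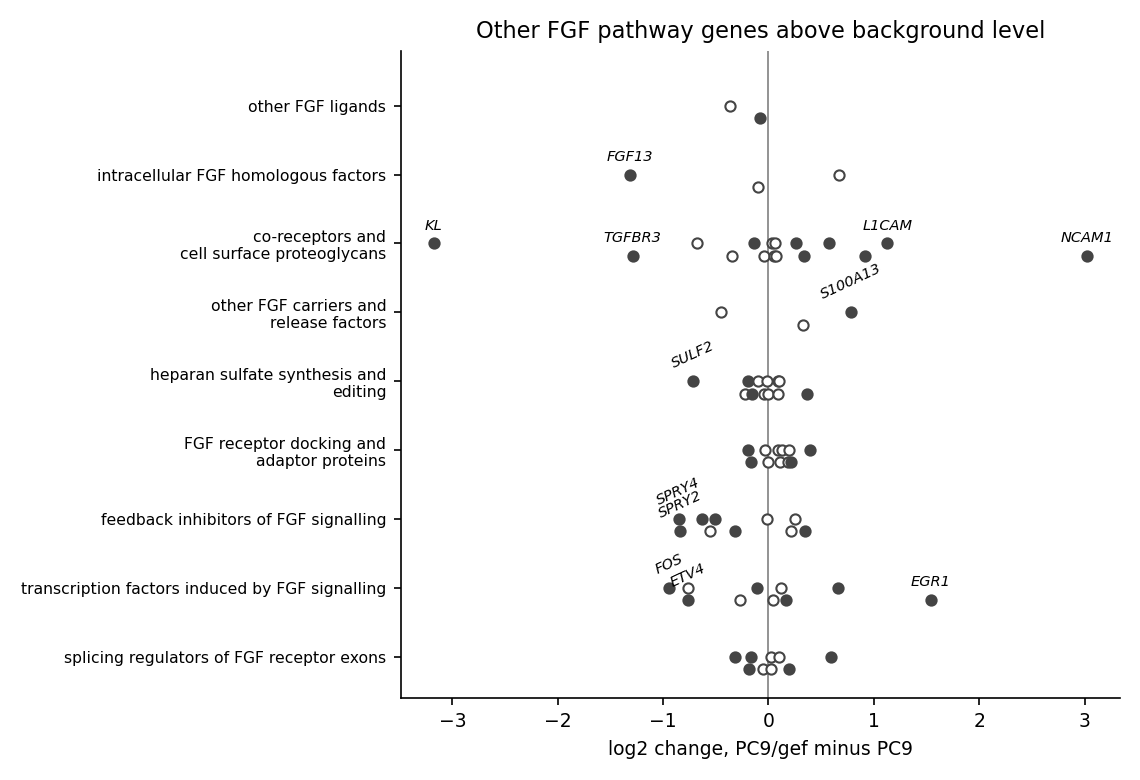
Log2 change of PC9/gef against PC9 (x axis) of the list genes above background level, by list (y axis). Each point is 1 gene and filled points passed limma. Genes of the naming rule with a change over 0.7 in size are named. KL (-3.18) and NCAM1 (3.02, a fitted value against a line at background level) lie farthest from 0.

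Co-receptors and cell surface proteoglycans held the largest changes, with 6 of 16 genes above background level higher, 3 lower and 7 not passing. Over all genes above background level 20.5% were higher and 19.2% lower. KL, which encodes Klotho, the co-receptor of the hormone-like ligand FGF23, read 8.32, 8.40 and 8.35 in PC9 and 5.35, 5.03 and 5.15 in PC9/gef. All PC9/gef arrays lay far below the PC9 arrays, and the level was 9.06-fold lower (limma adjusted p = 0.00027). NCAM1, a neural adhesion molecule that can bind FGF receptors, was at background level on all 3 PC9 arrays and read 5.58, 5.47 and 5.19 in PC9/gef. NCAM1 was at least 6.98-fold higher against the background level (limma adjusted p = 0.00046), and a second probe set gave at least 5.04-fold. All other NCAM1 probe sets were at background level in both lines. TGFBR3, a proteoglycan that binds TGF-beta and FGF2, was 2.44-fold lower, and L1CAM, an adhesion molecule of the same kind as NCAM1, was 2.19-fold higher (adjusted p = 0.00074 and 0.0015).

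Feedback inhibitors were more often lower than higher, with 5 of 10 genes above background level lower, 1 higher and 4 not passing, and a median log2 change of -0.41. Over all genes above background level 19.2% were lower and 20.5% higher, and the list itself was not tested. SPRY2, a Sprouty inhibitor of receptor signalling to RAS, read 9.32, 9.19 and 9.29 in PC9 and 8.37, 8.45 and 8.45 in PC9/gef, without overlap, and was 1.79-fold lower (limma adjusted p = 0.0010). DUSP5, a nuclear phosphatase of ERK, fell by 0.63 on the log2 scale (adjusted p = 0.0047), and IL17RD, the FGF antagonist also called SEF, fell by 0.51 (adjusted p = 0.0017). SPRY4, another Sprouty protein, was lower by 0.85 on the log2 scale (limma adjusted p = 0.0306), but its call was lost without any 1 of the PC9 arrays or without PC9/gef replicate 1 or 3, with adjusted p from 0.0590 to 0.114.

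Transcription factors that FGF signalling is known to induce did not move together, with 3 of 10 higher, 3 lower and 4 not passing. EGR1, an immediate early factor, read 3.59, 3.48 and 4.02 in PC9 and 5.22, 5.31 and 5.18 in PC9/gef and was 2.90-fold higher (limma adjusted p = 0.0062), whereas a second EGR1 probe set had a log2 change of 0.19 that did not pass (adjusted p = 0.385). FOSL1, a member of the AP-1 family, was higher by 0.66 on the log2 scale (adjusted p = 0.00100). ETV4, an ETS factor of the PEA3 group, fell by 0.77 (adjusted p = 0.0083). FOS, another AP-1 member, fell by 0.94 (limma adjusted p = 0.0225), a call lost without replicate 1 or 3 of either line, with adjusted p from 0.0607 to 0.0903.

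Other ligands of the family were nearly all at background level, 13 of 15. FGF6, known from muscle, lay near that level, with means of 3.13 for PC9 and 3.05 for PC9/gef, and was called lower by 0.081 on the log2 scale (limma adjusted p = 0.0059). FGF19, a hormone-like ligand named here as the other ligand above background level, read 2.67, 2.97 and 2.70 in PC9 and 2.49, 2.49 and 2.28 in PC9/gef, and its log2 change of -0.36 did not pass (limma adjusted p = 0.0935). Of the intracellular FGF homologous factors, which are not secreted and act on sodium channels, 3 of 4 were above background level and 1 was called, lower. FGF13 read 8.44, 8.37 and 8.38 in PC9 and 7.20, 6.87 and 7.17 in PC9/gef, a 2.49-fold lower level without overlap (limma adjusted p = 0.0026). Of the other carriers and release factors, FGFBP2 and FGFBP3, the relatives of FGFBP1, were at background level in both lines. S100A13, which takes part in the release of FGF1, was 1.72-fold higher in PC9/gef (limma adjusted p = 0.00026).

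Genes of heparan sulfate synthesis and editing were lower in 3, higher in 1 and not called in 8 of 12 cases above background level. SULF2, the extracellular enzyme that removes sulfate groups from heparan sulfate, was 1.65-fold lower by one probe set (limma adjusted p = 0.00036) and lower by 0.83 on the log2 scale by another (adjusted p = 0.0020). NDST1, which starts the sulfation of the chain, was higher by 0.37 on the log2 scale (limma adjusted p = 0.0048), but as the mean over its probe sets the change was 0.067 and did not pass (adjusted p = 0.171). HS3ST1 and HS6ST2, a pair of sulfotransferases, were lower by 0.20 and 0.16 (limma adjusted p = 0.0416 and 0.0420). The HS3ST1 call was lost without any 1 of 5 arrays, all but PC9 replicate 1, with adjusted p from 0.0784 to 0.124. The HS6ST2 call was lost without any 1 of 5 arrays, all but PC9/gef replicate 3, with adjusted p from 0.0580 to 0.128.

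Docking and adaptor proteins of the receptors moved by small amounts, with 2 of 11 above background level higher, 2 lower and 7 not passing. SHC1 was higher by 0.21 on the log2 scale (limma adjusted p = 0.0026), though the mean over its probe sets did not pass (0.053, adjusted p = 0.687). GRB2, the adaptor that brings SOS proteins to the receptor complex, fell by 0.17 (limma adjusted p = 0.0057). A second GRB2 probe set fell by 0.38 (limma adjusted p = 0.0080), and a dimmer one by 0.13 without passing (adjusted p = 0.0862). SOS2, an exchange factor for RAS, was higher by 0.39 (limma adjusted p = 0.0461), a call lost without any 1 array except PC9/gef replicate 2, with adjusted p from 0.110 to 0.146. CBL, a ubiquitin ligase for activated receptors, was lower by 0.19 (limma adjusted p = 0.0389), a call lost without PC9 replicate 2 or any 1 of the PC9/gef arrays, with adjusted p from 0.0767 to 0.122.

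Of the splicing regulators that bear on the alternative receptor exons, 2 of 9 were higher, 3 lower and 4 not called. QKI was higher by 0.60 on the log2 scale (limma adjusted p = 0.0013). PTBP1, a repressor of exon inclusion, was lower by 0.32 (limma adjusted p = 0.00026) by a probe set that can match several transcripts, while its only probe set without that suffix was at background level. CELF1 was higher by 0.19 (limma adjusted p = 0.0155), a call lost without replicate 1 or 2 of PC9, or 1 or 3 of PC9/gef, with adjusted p from 0.0549 to 0.0677. Another, dimmer CELF1 probe set had line means of 7.58 in PC9 and 8.18 in PC9/gef. Its log2 change was 0.60 (limma adjusted p = 0.00076). The remaining CELF1 probe sets above background level changed by 0.29, 0.27 and 0.14 and did not pass (limma adjusted p from 0.0624 to 0.455). HNRNPF was lower by 0.19 (limma adjusted p = 0.0470), a call lost without any 1 array except PC9 replicate 3, with adjusted p from 0.0648 to 0.154. The probe sets of FGFR1 and FGFR2 in these data were not assigned to splice forms.

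Markers of other cell types were set beside these changes. Of 8 fibroblast markers, 7 were at background level in both lines, PDGFRA and PDGFRB among them, and COL1A1 read 7.94 in PC9 and 8.46 in PC9/gef as line means (limma adjusted p = 0.0573). Of the endothelial markers 4 of 5 were at background level, CDH5 and VWF among them, and CLDN5 read 2.96 and 2.73. Of the leukocyte markers 4 of 5 were at background level, PTPRC among them, while LYZ fell from 8.77 to 7.69 (limma adjusted p = 0.0019). The summed level of the epithelial list, as log2 of the sum, lay between 16.85 and 16.87 in PC9 and between 16.82 and 16.84 in PC9/gef. The summed level of the fibroblast list lay between 8.01 and 8.35 in PC9 and between 8.53 and 8.64 in PC9/gef, and that of the leukocyte list between 8.78 and 8.94 and between 7.72 and 7.88. The part of COL1A1 and LYZ in the differences of the FGF genes was not tested.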

How the data were processed

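Total RNA of 3 PC9 and 3 PC9/gef samples was hybridized to 1 array each. The authors corrected background, normalized and summarized the scans, and deposited log2 values. Their methods name GC-RMA and GeneSpring GX and the submitters' notes name RMA, with versions not given in the sources used here. The sorted values were identical on all 6 arrays, as after quantile normalization, so no scaling was added. Of 54675 probe sets, 62 controls were left out. The annotation gave 41091 of the rest 1 gene, 1801 several and 11721 none. About 53.0% of probe sets lay at or below background level.

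limma 3.58.1 (R 4.3.3, no trend, not robust) compared the lines, and p-values were adjusted over 54613 probe sets by Benjamini-Hochberg. An exact permutation test of 3 against 3 arrays cannot go below p = 0.1. Where 1 line was at background level, the fold is a lower bound. The members, gene lists and naming rule were chosen with earlier results of these data known. The rule names all members with their probe sets, up to 4 called genes per list by size of change, and the 3 genes nearest to the most changed member. FGF19, the neighbours, the promoter motifs and the markers named fall outside it and were picked after values were seen. NDST2, FRS2, CRK and ESRP2 had no probe set of their own, and 1 further list gene is not reported here. Alternatives were dim probe sets left out, the mean over probe sets, median centring, quantile normalization, probe sets of shared sequence left out, adjustment over genes, trend and robust moderation, the methods' t-test, a replicate block and each array left out. Scripts were tested on simulated data. Python 3.11.15 and matplotlib 3.10.9 drew the figures.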

Additional observations from a re-analysis of the deposited data

How the results depend on the processing

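FGFBP1 kept its direction and its call under every alternative run, with adjusted p from 1.3e-05 to 0.0117. The number of FGF genes called lower rose from 1 to 3 with dim probe sets left out and with adjustment over genes, and to 2 with the mean over probe sets and with trend and robust moderation. It lay between 1 and 2 with 1 array left out, and 0 genes were called higher in any of these. FGFR1 turned to -0.11 without probe sets of shared sequence. FGFR2 turned to -0.00099 as the mean over probe sets, to -0.012 without PC9 replicate 2 and to -0.0094 without PC9/gef replicate 3, within a range of -0.012 to 0.073 with 1 array left out. The FGF probe sets called lower, 3 of 34, became 5 by the methods' t-test and by trend and robust moderation, and 1 when calls at background level were not counted, a setting chosen after seeing the data. With 1 array left out they lay between 1 and 3, and those called higher between 0 and 1. The list genes called higher lay between 10 and 15 and those called lower between 13 and 21 with 1 array left out. All genes called lower lay between 1625 and 3496 with 1 array left out and were 4171 with trend and robust moderation. At the 90th percentile the background level would be 2.50.

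The samples share replicate numbers but no stated pairing. The deviations of same-numbered samples from their line means correlated between -0.025 and 0.047, and not every sample correlated best with its own number. With the replicate number as a block, 1250 genes were called higher and 1207 lower, 9 list genes were called in each direction, and 1 FGF probe set, that of FGFBP1, was called lower. Signal over background limits FGF1, FGF2 and FGFR3, and 3 arrays a line limit changes near the threshold such as those of FGFRL1 and FGFR4.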
